A study of Mus musculus with 12 samples.

Results

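RNA of inguinal and epididymal white adipose tissue (iWAT and eWAT) was compared for genes that responded differently to a GIP analog in the 2 depots. The genes were those with an average log2 CPM (log2 of a gene's read count relative to the reads of its library, averaged by the authors over the samples of a depot) of at least 0 in both depots, which held for 13197 of the 27179 genes listed in both tables. Alone, iWAT had 13837 such genes and eWAT 13657. The mice were C57/BL6 controls and gave 12 samples in 4 groups of 3: iWAT with saline, iWAT with the analog, eWAT with saline and eWAT with the analog. The analog, (D-Ala2)GIP[Lys37PAL], is a stabilized, acylated form of the gut hormone GIP. All mice shared 10 days on chow with 3 subcutaneous injections, followed by 2 weeks of high-fat diet (HFD) with 5 injections of saline or of the analog at 2 pmol/kg. In mice of the analog groups, the last of the chow injections already held a sensitizing dose of the analog.

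For each gene and depot, the deposited tables give 1 log2 fold change between the treatments and its likelihood ratio. The values per sample could not be tied to a labelled sample, so the depth, the levels in each mouse and the spread between mice are unknown here, and every error below is a standard error (SE) derived from the fold change and its likelihood ratio. The tables do not state which treatment a positive fold change stands for. Genes are therefore called positive or negative by the sign of the table, with the same orientation assumed in both depots. The labels do not say which iWAT and eWAT samples came from the same mouse, and the depots were treated as independent. Nor do the labels describe the samples of a group beyond their replicate number, so the p-values measure only the spread between these samples.

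White fat stores triglyceride, and depots of a mouse differ in what else they hold. The inguinal depot lies under the skin, can form beige adipocytes that burn fuel for heat, and encloses a lymph node rich in B and T cells. The epididymal depot is visceral, forms few beige adipocytes and holds scattered leukocytes, chiefly macrophages and T cells. GIP acts on a receptor that raises cyclic AMP, and in adipose tissue it is known for its effects on lipid uptake and blood flow. Marker genes were read in both depots. None of 16 epididymis genes reached an average log2 CPM of 0 in either table, and the highest was at -0.757 in iWAT and -0.745 in eWAT. Being low in both, these genes do not tell the depots apart. Ucp1, which uncouples respiration in thermogenic fat, had an average log2 CPM of 9.15 in iWAT and -1.39 in eWAT. Fat markers were present in both depots.

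The depots differed in their response for 489 genes, or 3.71% of those tested, at an adjusted p under 0.05 for the difference between the 2 fold changes. In 372 of these genes (2.82% of all tested) the iWAT fold change was below that of eWAT, and in 117 (0.887%) it was above. By sign, whether or not each depot passed, 90.6% of the 489 genes pointed in different directions in the 2 depots, against 39.9% of all tested genes, and choosing genes by their difference itself favors unlike signs. A negative value in iWAT with a positive value in eWAT was found for 341, and the reverse for 102. Only 40 were negative in both depots and 6 positive in both. Within a depot, the treatments differed for 578 genes in iWAT, of which 154 were positive (1.17%) and 424 negative (3.21%), and for 1377 genes in eWAT, of which 374 were positive (2.83%) and 1003 negative (7.6%). Over all 13197 genes the 2 sets of fold changes had a Pearson r of 0.071 and a Spearman rho of 0.223 across genes, which are not independent replicates.

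**Figure D1:**
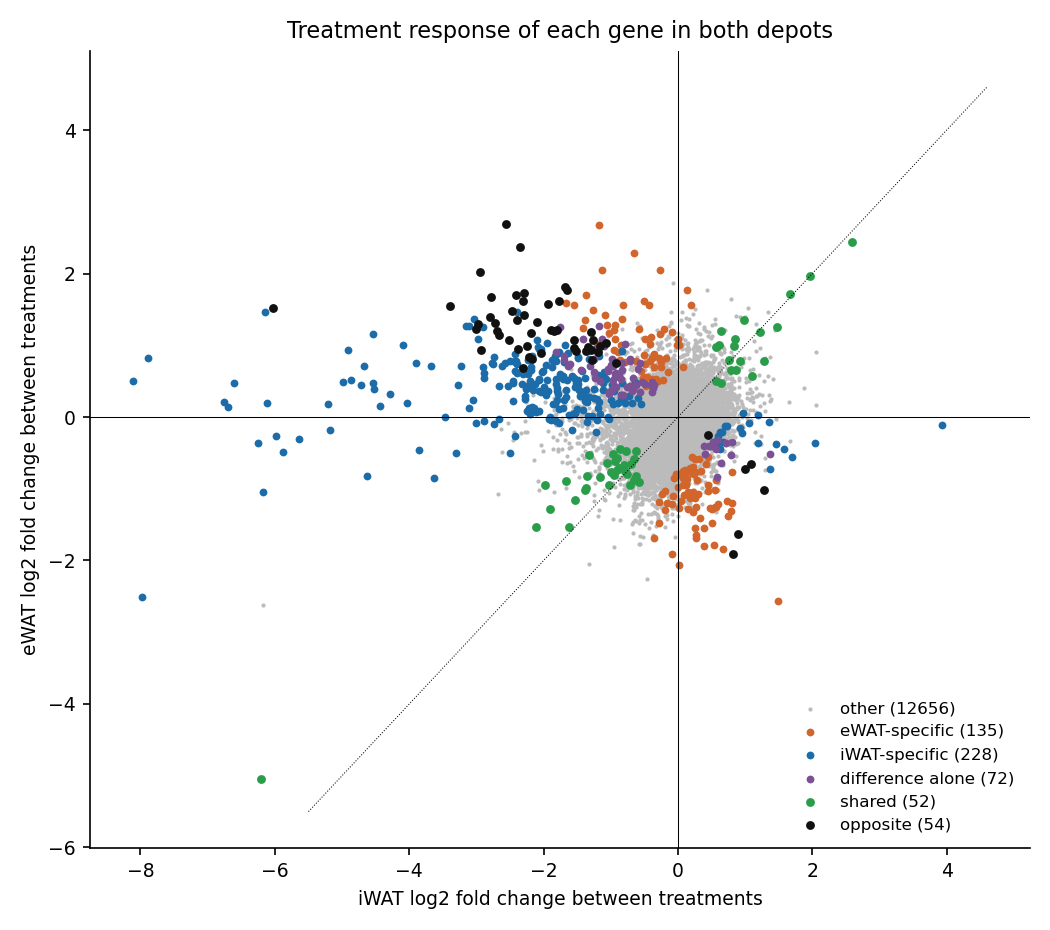
Log2 fold change between the treatments in iWAT (x axis) and in eWAT (y axis), 1 point a gene, with the response class in color, the number of genes in the legend and equality as a dotted line. The 228 iWAT-specific genes stretch left along the horizontal axis, the 54 opposite genes (black) lie mostly in the upper left, and the 52 shared genes (green) lie along the dotted line.

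Each gene with a call was placed in a class. A response was called shared where both depots passed with 1 sign, and opposite where both passed with different signs. It was called iWAT-specific or eWAT-specific where 1 depot passed, the other did not, and the difference itself passed. This gave 52 shared genes, 54 opposite genes, 228 iWAT-specific genes and 135 eWAT-specific genes. A further 72 genes passed for the difference alone. A call in 1 depot was often no evidence of a difference: 1136 of the genes called only in eWAT and 244 of those called only in iWAT did not pass for the difference and remained unresolved. The 424 genes that were negative in iWAT departed most from the other depot. Their median log2 fold change was -1.68 in iWAT and 0.18 in eWAT, and 254 of them (59.9%) differed between depots. Of the 1003 genes that were negative in eWAT, with medians of -0.77 in eWAT and -0.24 in iWAT, only 81 (8.08%) did. The corresponding shares were 18.2% of the 154 genes positive in iWAT and 28.9% of the 374 genes positive in eWAT. These shares are descriptions, since the calls in a depot and the calls in the difference use the same fold changes.

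The errors set what could be seen. The median SE of a log2 fold change was 0.267 in iWAT and 0.222 in eWAT, and that of their difference was 0.348. A gene with the median error had to differ by 1.09 log2 units between depots to be called. Genes with smaller errors were called at smaller differences, such as Scd1 at -0.61, and a gene without a call is not shown to respond alike.

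B cell genes were negative in iWAT and near 0 in eWAT. Of 12 tested genes of the B cell list, 9 differed between depots, all below in iWAT, and the list medians were -4.91 in iWAT and -0.02 in eWAT, where all tested genes had medians of -0.01 and 0.01. Cd79a, which carries the signal of the B cell antigen receptor, had a log2 fold change of -6.70 ± 0.70 (SE) in iWAT and 0.14 ± 0.36 in eWAT, a difference of -6.84 ± 0.79. Its partner Cd79b had -5.18 ± 0.61 and -0.18 ± 0.36. None of the 12 passed in eWAT. Jchain, which joins secreted IgA and IgM, behaved like these genes, with -5.20 ± 0.69 and 0.19 ± 0.36, although only 2 of the 7 tested plasma cell genes differed. Of 18 gene segments of immunoglobulins and T cell receptors, between which reads can be split, 14 differed, all below in iWAT. By sign alone, 3 of these 14 were negative in eWAT as well. Igkv4-72, which was not among the 14, was the only segment called negative in both depots. It had -6.20 ± 0.96 in iWAT and -5.04 ± 1.26 in eWAT.

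Genes of lymph node stroma and of cells that home there followed the B cell genes. Of 7 tested members of that list, 5 differed, and the medians were -3.85 in iWAT and 0.50 in eWAT. Chst4, a sulfotransferase of high endothelial venules, the vessels by which lymphocytes enter the node, had -8.11 ± 1.21 in iWAT and 0.50 ± 0.33 in eWAT. Its difference of -8.61 ± 1.25 was the most negative of the named genes other than gene segments. Ccl21a, a chemokine that draws lymphocytes and dendritic cells into the node, had -4.98 ± 0.95 and 0.49 ± 0.23, although it shares reads with near-identical copies. Cxcl13, the follicle chemokine, had -3.11 ± 0.59 and 1.27 ± 0.54, and Ltb, a lymphotoxin chain needed for lymphoid organs, -4.28 ± 0.64 and 0.32 ± 0.32.

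T cell genes were called in both depots, with different signs. All 14 tested T cell genes were called negative in iWAT, 8 were called positive in eWAT, and 13 differed. The medians were -2.49 in iWAT and 1.22 in eWAT. Cd3e, a chain of the CD3 complex that carries the T cell receptor signal, had -2.42 ± 0.70 in iWAT and 1.70 ± 0.33 in eWAT, a difference of -4.12 ± 0.78. Lck, the kinase that starts that signal, had -2.78 ± 0.64 and 1.67 ± 0.35. Zap70, the kinase recruited next, had -2.30 ± 0.63 and 1.62 ± 0.47, and Lat, their scaffold, -2.69 ± 0.58 and 1.20 ± 0.29. Cd4, the coreceptor of helper T cells, had -1.77 ± 0.54 and 1.62 ± 0.39. Markers of naive and central memory cells were also negative in iWAT. Il7r, the receptor for the survival cytokine IL-7, had -4.87 ± 0.75 in iWAT and 0.52 ± 0.38 in eWAT, and Ccr7, the receptor for Ccl21a, had -4.54 ± 0.79 and 1.15 ± 0.46, neither past the threshold in eWAT.

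Genes of NK and cytotoxic lymphocytes were called mainly in eWAT. Of 11 tested members, 10 were called positive in eWAT, 2 negative in iWAT, and 9 differed, all below in iWAT. The medians were -0.94 in iWAT and 1.86 in eWAT. Gimap7, a lymphocyte GTPase, had 2.67 ± 0.44 in eWAT and -1.18 ± 0.55 in iWAT. Nkg7, a protein of cytotoxic granules, had 2.05 ± 0.37 and -1.13 ± 0.43. Ccl5, a chemokine made by activated T and NK cells, was called in both depots, with 1.58 ± 0.25 in eWAT and -1.93 ± 0.60 in iWAT. Of the remaining members, 4 receptors of effector lymphocytes, chosen after their values were seen, were called in eWAT and for the difference. Il2rb, a chain of the receptors for IL-2 and IL-15, had 2.29 ± 0.32 in eWAT and -0.65 ± 0.52 in iWAT. Cxcr3, a chemokine receptor of activated T and NK cells, had 2.05 ± 0.33 and -0.27 ± 0.41. Klrk1, the activating receptor NKG2D, had 1.62 ± 0.39 and -0.51 ± 0.42, and Cxcr6, a receptor of tissue-resident lymphocytes, 1.29 ± 0.30 and -0.94 ± 0.52.

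Of the 54 opposite genes, 48 were negative in iWAT and positive in eWAT, with medians of -2.21 and 1.20, and 12 of these 48 (25.0%) are members of the immune lists, to which 1.04% of all tested genes belong. The lists were chosen with earlier results of these data known, so this share is only a description. Among the opposite genes with the widest split were Ms4a4b, a membrane protein of T cells, with -2.35 ± 0.57 in iWAT and 2.37 ± 0.37 in eWAT, and Rasal3, a Ras GTPase-activating protein of lymphoid cells, with -2.95 ± 0.59 and 2.02 ± 0.34. Sh2d2a, a T cell adaptor, had -2.29 ± 0.53 and 1.73 ± 0.46. Il22ra2, the decoy receptor for IL-22, had -6.04 ± 0.87 and 1.52 ± 0.49, the largest difference among opposite genes at -7.56 ± 1.00. The opposite genes were also more abundant in iWAT than in eWAT. The 48 had a median average log2 CPM of 4.44 in iWAT and 1.90 in eWAT, against 4.23 and 4.20 for all tested genes, where levels in the 2 tables were normalized separately. The same held for the 206 iWAT-specific negative genes, at 3.71 and 2.00.

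**Figure D2:**
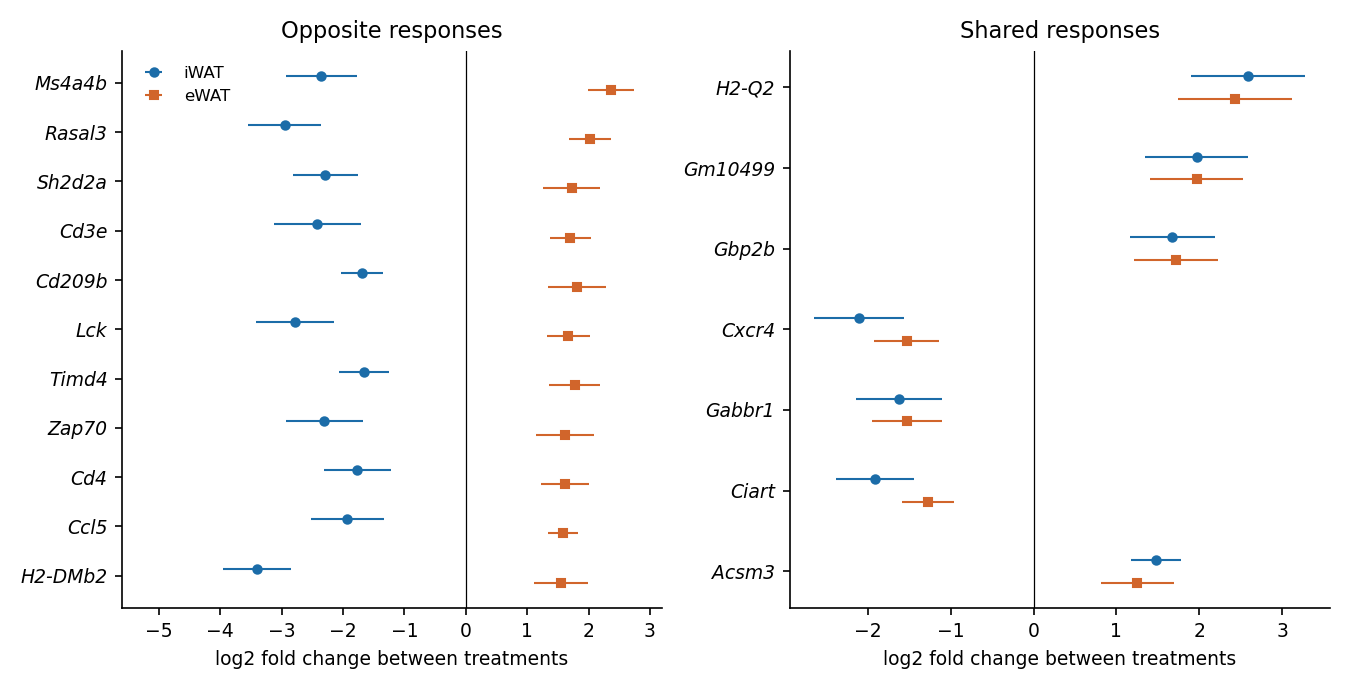
Log2 fold change between the treatments in iWAT (blue circles) and eWAT (orange squares) for the named opposite genes (left) and shared genes (right), gene segments left out, with bars of 1 SE. Every opposite gene shown lies left of 0 in iWAT and right of 0 in eWAT, by more than its error, while the pairs of points of the shared genes lie close together.

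The promoters of these genes were read for short motifs, since the members of a pattern moved together. RefSeq promoters (250 bases before to 50 after the start, GRCm38.p6) were at hand for 10061 of the tested genes, and 4 motifs were searched on both strands, chosen after a wider search of these promoters. GGAAGT, a core bound by ETS factors such as those of lymphoid cells, was present in 28.9% of all promoters. It was present in 17 of 32 promoters (53.1%) of the opposite genes that were negative in iWAT and positive in eWAT, and in 58 of 149 (38.9%) of the iWAT-specific negative genes. ATGCAAAT, the octamer of immunoglobulin and B cell promoters, was present in 1.34% of all promoters, in 7 of 149 (4.70%) of the iWAT-specific negative genes and in none of the 32. In the eWAT-specific positive genes, GGAAGT was present in 17 of 46 promoters (37.0%) and ATGCAAAT in 2 of 46 (4.35%), and ATGCAAAT was also present in 1 of 26 (3.85%) of the shared negative genes. None of these motifs overlaps another in the sequences below. For the opposite genes negative in iWAT and for the iWAT-specific negative genes, 1 promoter each is shown, with the motif in capitals. It is that of the gene furthest from 0 in units of its error, among those with GGAAGT. That of Ms4a4b lies at chr19:11443308-11443607 on the plus strand, and that of Cd79a at chr7:24897247-24897546 on the plus strand. A match is a string of letters, not a bound site.
Ms4a4b: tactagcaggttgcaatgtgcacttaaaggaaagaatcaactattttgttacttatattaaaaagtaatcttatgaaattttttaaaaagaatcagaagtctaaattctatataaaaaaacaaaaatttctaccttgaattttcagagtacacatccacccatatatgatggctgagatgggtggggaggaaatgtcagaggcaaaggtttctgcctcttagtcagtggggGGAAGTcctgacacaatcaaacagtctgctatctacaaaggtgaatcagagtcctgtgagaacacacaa
Cd79a: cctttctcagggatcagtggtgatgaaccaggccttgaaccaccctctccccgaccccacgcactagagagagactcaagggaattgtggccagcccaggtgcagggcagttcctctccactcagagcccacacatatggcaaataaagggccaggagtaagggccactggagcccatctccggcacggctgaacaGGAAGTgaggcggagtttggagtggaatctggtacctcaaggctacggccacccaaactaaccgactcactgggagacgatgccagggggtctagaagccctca

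Antigen presentation divided along the same line. Of 10 tested genes of MHC class II presentation, 7 differed between depots, all below in iWAT, and the medians were -0.82 in iWAT and 0.65 in eWAT. The difference was widest for H2-DMb2 and H2-Ob. H2-Ob, a B cell regulator of peptide loading, had -4.43 ± 0.56 in iWAT and 0.15 ± 0.38 in eWAT, and H2-DMb2, a chain of the peptide-loading factor H2-DM, had -3.40 ± 0.56 and 1.55 ± 0.44. Cd74, the invariant chain found in every class II cell, had -0.89 ± 0.29 and 0.90 ± 0.30, and Ctss, the protease that trims it, -0.86 ± 0.30 and 0.79 ± 0.26. Both passed in eWAT and not in iWAT. MHC class I genes did not share this split. None of 13 differed, with medians of 0.11 and 0.18.

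Of 10 dendritic cell genes, 4 differed between depots, all below in iWAT. Ccl22, a chemokine of mature dendritic cells, had -4.10 ± 0.85 in iWAT and 1.00 ± 0.48 in eWAT. Siglech, a marker of plasmacytoid cells, had -2.07 ± 0.49 and 0.08 ± 0.44, and Irf8, a factor that dendritic cells need, had -1.62 ± 0.37 and 0.03 ± 0.28. Cd209a was called in eWAT only, with 1.12 ± 0.36 against -0.40 ± 0.21. Of 24 macrophage and monocyte genes, 2 differed, where 3.71% of all tested genes did. Timd4, a receptor for apoptotic cells on resident macrophages, had -1.65 ± 0.41 in iWAT and 1.77 ± 0.41 in eWAT. Gpnmb, a gene of lipid-laden macrophages, had 0.01 ± 0.18 and 1.00 ± 0.24. In contrast with the lymphocyte lists, the median of the macrophage list was positive in both depots, 0.22 in iWAT and 0.64 in eWAT. Cd209b, a lectin of marginal zone and lymph node macrophages, was opposite like the T cell genes, with -1.69 ± 0.34 and 1.81 ± 0.48.

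Cell cycle genes had lower fold changes in iWAT than in eWAT. All 24 tested members had a difference below 0, against 6477 of all 13197 tested genes. The medians of the list were -1.26 in iWAT and 0.04 in eWAT, but 3 members differed by the test. These were the replicative helicase subunits Mcm2, with -1.28 ± 0.37 and 0.80 ± 0.26, Mcm4, with -0.67 ± 0.24 and 0.54 ± 0.20, and Mcm6, with -0.85 ± 0.31 and 0.31 ± 0.20. Of 19 immediate early genes, 2 differed, where 3.71% of all tested genes did. They were Myc, with -0.88 ± 0.32 and 0.58 ± 0.25, and Junb, with -0.96 ± 0.26 and 0.19 ± 0.23.

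B and T cell genes moved in iWAT together with markers of the lymph node that this depot encloses. Of the 7 lymph node genes, 5 were called negative in iWAT, as were 9 of the 12 B cell genes and all 14 T cell genes. Cd79a had an average log2 CPM of 5.78 in iWAT and 0.73 in eWAT, and Ccl21a of 5.29 and 3.86, while Chst4 was higher in eWAT, at 0.52 and 2.66. The part of lymph node tissue in these values was not tested, and no level per sample is at hand to set beside them. In bulk tissue, fewer cells of a type and less RNA per cell cannot be told apart.

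**Figure D3:**
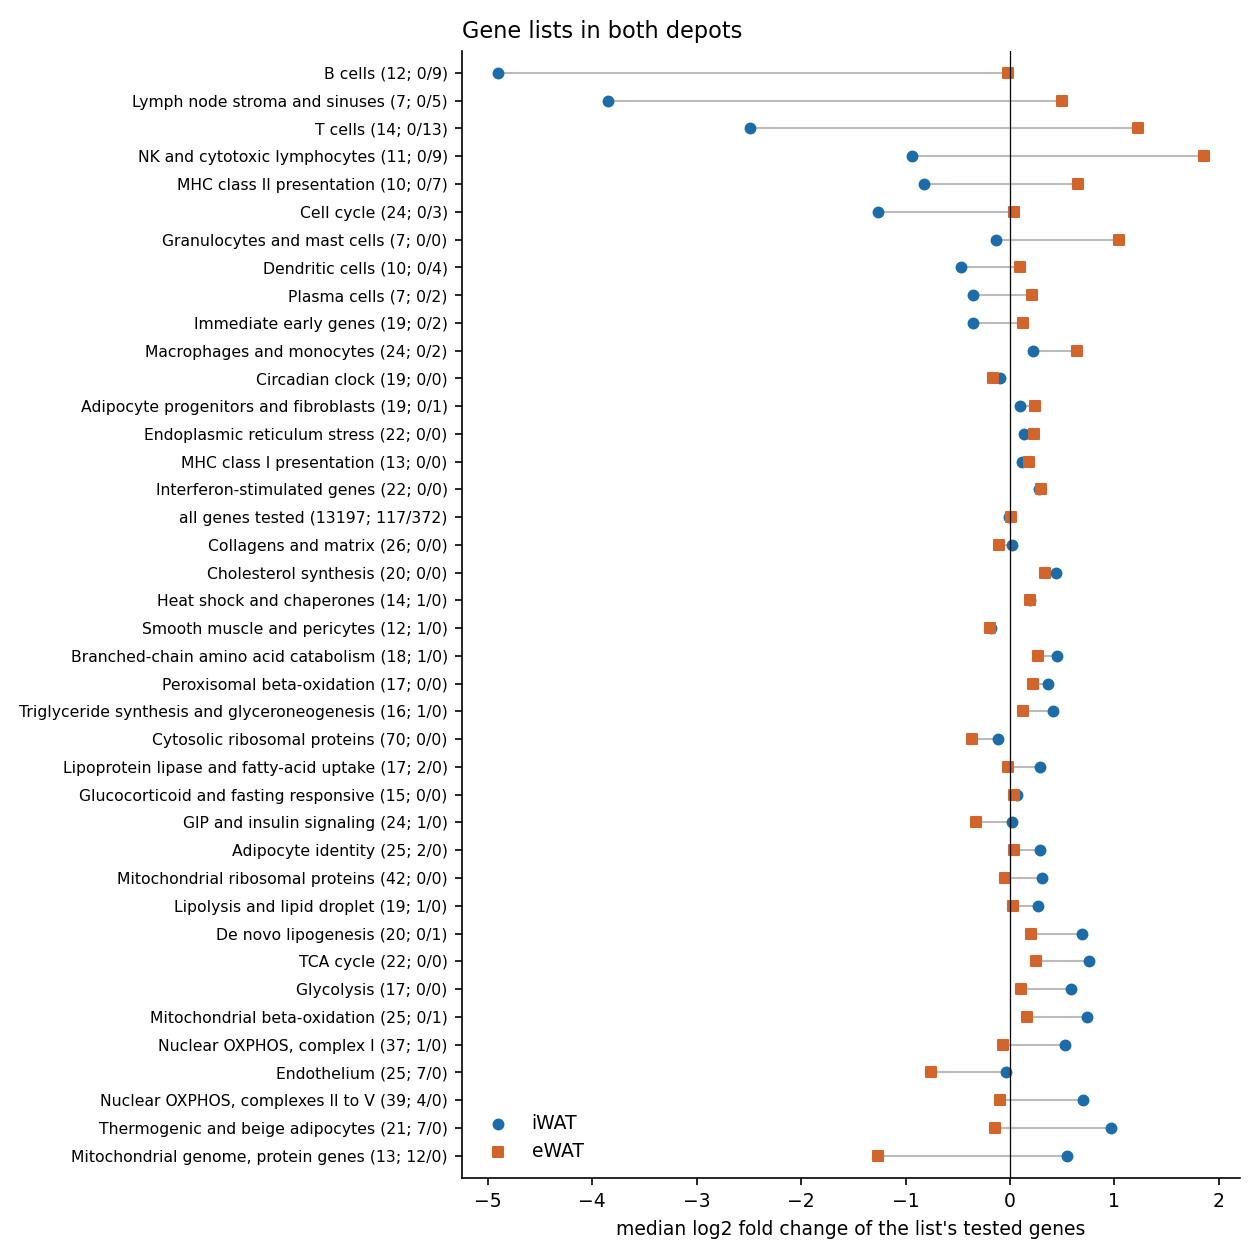
Median log2 fold change between the treatments over the tested genes of each list in iWAT (blue circles) and eWAT (orange squares), for the lists with at least 5 tested genes and for all genes tested. Labels give the number of genes tested and, after the semicolon, how many differed with iWAT above and below eWAT. The B cell, lymph node and T cell lists have the widest gaps, with iWAT to the left, and the mitochondrial genome and thermogenic lists have iWAT to the right.

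The thermogenic genes that differed were above in iWAT. Of 21 tested genes of thermogenic and beige adipocytes, 10 were called positive in iWAT, 1 was called positive and 3 negative in eWAT, and 7 differed between depots, all above in iWAT, and the medians were 0.97 in iWAT and -0.14 in eWAT. Cox7a1, a subunit of cytochrome c oxidase typical of heart and brown fat, had 2.04 ± 0.40 in iWAT and -0.36 ± 0.28 in eWAT, a difference of 2.40 ± 0.48. Cidea, a lipid droplet protein of brown and beige fat, had 1.58 ± 0.38 and -0.45 ± 0.30. Cox8b, another oxidase subunit of brown fat, had 1.37 ± 0.37 and -0.73 ± 0.27. Ppara, the nuclear receptor of fatty-acid oxidation, had 1.46 ± 0.33 and -0.38 ± 0.20. Kng2, a kininogen, had 3.93 ± 0.96 and -0.11 ± 0.46, the largest positive iWAT fold change among these genes. These 5 genes were called in iWAT and not in eWAT.

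The remaining 2 of the 7 thermogenic genes were opposite. S100b, a calcium-binding protein of beige fat and of nerve, had 1.28 ± 0.25 in iWAT and -1.02 ± 0.35 in eWAT. Ppargc1b, a coactivator of mitochondrial genes, had 1.00 ± 0.30 and -0.72 ± 0.22. Its relative Ppargc1a had 0.49 ± 0.21 and -0.07 ± 0.27, and Prdm16, a factor of beige identity, 0.20 ± 0.24 and -0.41 ± 0.27, and neither passed in any test. Dio2, which makes active thyroid hormone, passed in iWAT, with 1.66 ± 0.51, but its difference of 1.45 ± 0.78 did not pass. Ucp1 and the fatty-acid elongase Elovl3 could not be compared, because their average log2 CPM in eWAT, -1.39 and -1.02, was below the filter. Their log2 fold changes in iWAT were 2.71 and 2.79. Pank1, which starts coenzyme A synthesis and is in no thermogenic list, had 1.70 ± 0.41 in iWAT and -0.56 ± 0.31 in eWAT.

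The nuclear genes of oxidative phosphorylation (OXPHOS) had small differences in 1 direction. Of 76 tested subunits, 75 had a higher fold change in iWAT than in eWAT, against 6720 of all 13197 tested genes. The medians of the subunits were 0.64 in iWAT and -0.09 in eWAT, but only 5 subunits passed the test for the difference. Beside Cox7a1 and Cox8b these were Cox7a2, with 0.73 ± 0.18 in iWAT and -0.12 ± 0.17 in eWAT, the ATP synthase subunit Atp5l, with 0.70 ± 0.17 and -0.13 ± 0.17, and the complex I subunit Ndufs6, with 0.52 ± 0.18 and -0.35 ± 0.17, which may share reads with a copy. The median difference of the 76 subunits, 0.67, was below the 1.09 that a gene with the median error needed to be called. The lists of the TCA cycle and of mitochondrial ribosomal proteins moved alike but without calls. All 22 genes of the TCA cycle had a higher fold change in iWAT, as did 40 of 42 mitochondrial ribosomal proteins, and none differed by the test. Of 25 genes of mitochondrial beta-oxidation, 22 had a higher fold change in iWAT, but the 1 that differed was below in iWAT. Members of a list were measured in the same samples and are not independent replicates.

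A motif of NRF1, a regulator of mitochondrial genes, written as GCGC and TGCGC with 1 base between them, was present in 17 of 64 promoters (26.6%) of nuclear OXPHOS genes, against 10.5% of all promoters. AGGTCA, the half-site of nuclear receptors, was present in 15 of these 64 (23.4%), against 12.4% of all. AGGTCA was also present in 27 of 149 promoters (18.1%) of the iWAT-specific negative genes and in 4 of 46 (8.70%) of the eWAT-specific positive genes. As the motifs were chosen after a wider search of these promoters, these shares are only descriptions. The promoter of Ndufs6, the OXPHOS gene furthest from 0 in units of its error among those with the NRF1 motif, lies at chr13:73328433-73328732 on the minus strand and is shown with that motif in capitals.
Ndufs6: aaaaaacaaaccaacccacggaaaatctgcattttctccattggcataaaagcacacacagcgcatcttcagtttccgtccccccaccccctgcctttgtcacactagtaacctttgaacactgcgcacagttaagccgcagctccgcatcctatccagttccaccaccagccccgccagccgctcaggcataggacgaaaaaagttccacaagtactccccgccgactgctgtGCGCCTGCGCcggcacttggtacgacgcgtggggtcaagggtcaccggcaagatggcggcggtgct

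**Figure D4:**
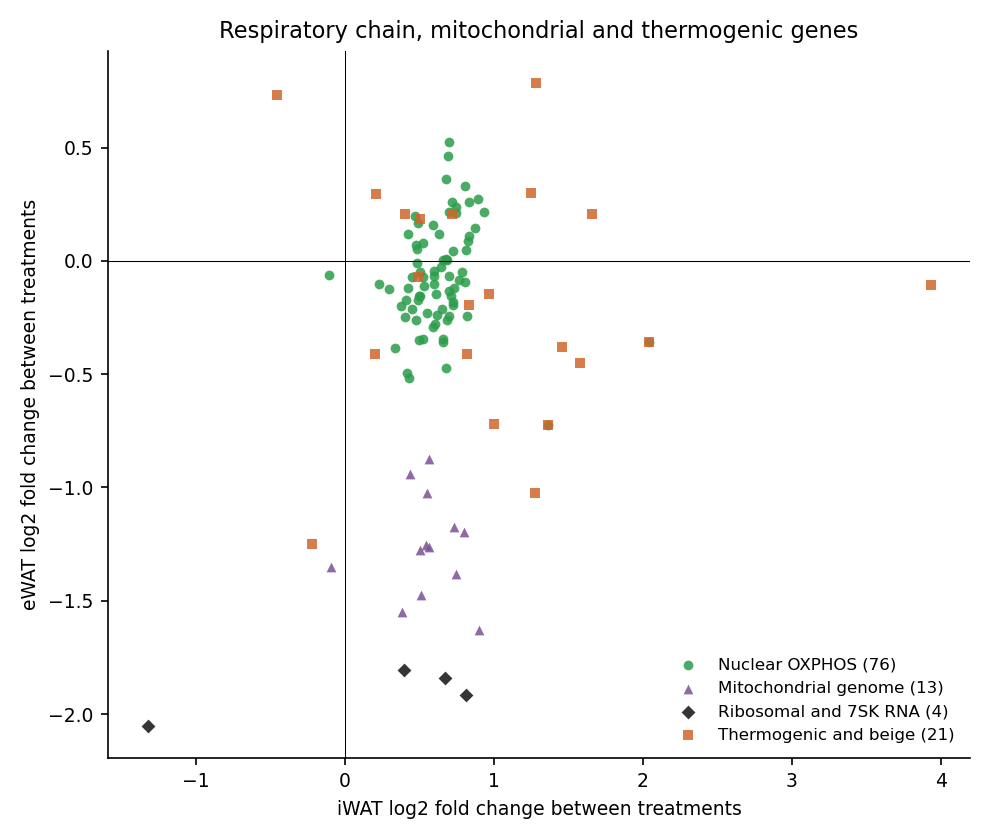
Log2 fold change between the treatments in iWAT (x axis) and eWAT (y axis) for nuclear OXPHOS genes (green circles), protein genes of the mitochondrial genome (purple triangles), mt-Rnr1, mt-Rnr2, Rn45s and Rn7sk (black diamonds) and thermogenic genes (orange squares), with the number of genes in the legend; Cox7a1 and Cox8b belong to both nuclear sets. The nuclear subunits cluster right of 0 at eWAT values near 0, while all 13 mitochondrial genes lie far below 0 in eWAT.

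The mitochondrial genome differed from the nuclear subunits in where the response lay. All 13 of its protein genes were called negative in eWAT, with a median of -1.26, and 1 was called positive in iWAT, where the median was 0.55. The difference passed for 12 of 13, with iWAT above. ND3, a complex I subunit, was opposite, with 0.90 ± 0.25 in iWAT and -1.63 ± 0.23 in eWAT. ND4 had 0.57 ± 0.23 and -1.26 ± 0.14, ND1 0.73 ± 0.26 and -1.18 ± 0.12, and CYTB, the cytochrome of complex III, 0.44 ± 0.18 and -0.94 ± 0.10. RNAs that libraries of polyadenylated RNA should hold little of moved with them. The mitochondrial ribosomal RNAs had 0.81 ± 0.24 in iWAT and -1.92 ± 0.10 in eWAT for mt-Rnr1, and 0.67 ± 0.23 and -1.84 ± 0.10 for mt-Rnr2. Among nuclear ribosomal RNAs, Rn45s had 0.39 ± 0.30 and -1.80 ± 0.20, and Rn18s 0.54 ± 0.38 and -1.78 ± 0.32, which share reads. The 7SK RNA Rn7sk was negative in both depots, with -1.32 ± 0.47 and -2.05 ± 0.34. Gm20594, with 1.49 ± 0.54 and -2.56 ± 0.38, had the largest positive difference of all genes called, 4.05 ± 0.66. The part of unequal removal of RNA without a poly(A) tail in these values was not tested.

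Endothelial genes were called in eWAT. Of 25 tested members, 17 were negative in eWAT and 1 in iWAT, with medians of -0.75 and -0.04, and 7 differed, all with iWAT above. Of all tested genes, 7.6% were called negative in eWAT and 3.21% in iWAT, and 0.887% differed with iWAT above. Cldn5, a tight junction protein of endothelium, had -1.07 ± 0.18 in eWAT and 0.29 ± 0.20 in iWAT, a difference of 1.37 ± 0.27. The angiopoietin coreceptor Tie1 had -0.69 ± 0.16 and 0.22 ± 0.19. Egfl7, a factor secreted by endothelium, had -1.04 ± 0.18 and -0.20 ± 0.16, and the junction protein Esam -0.71 ± 0.19 and 0.18 ± 0.17. The pericyte proteoglycan Cspg4 had -0.78 ± 0.23 and 0.21 ± 0.21. The other endothelial genes that differed were Robo4, Mmrn2 and Kdr, and Kdr was not called in eWAT. Of the 17 endothelial calls in eWAT, 11 did not pass for the difference. Pdgfra, the receptor that marks adipocyte progenitors, went the other way, with 1.09 ± 0.27 in eWAT and 0.00 ± 0.18 in iWAT. It was the only 1 of 19 progenitor genes to differ, where 3.71% of all tested genes did.

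A few adipocyte identity and lipid genes were called for the difference, as were 3.71% of all tested genes. Of 25 identity genes, Fabp4 and Cebpb differed. Fabp4, the abundant fatty-acid binding protein of adipocytes, had 0.44 ± 0.11 in iWAT and -0.25 ± 0.01 in eWAT, and Cebpb, an early adipogenic factor, 0.45 ± 0.35 and -1.03 ± 0.27. Adipoq, the gene of adiponectin, had 0.35 ± 0.19 and 0.08 ± 0.13, Pparg, the master factor of adipogenesis, 0.00 ± 0.32 and 0.02 ± 0.29, and the leptin gene Lep -0.34 ± 0.38 and 0.29 ± 0.42. Scd1, the stearoyl-CoA desaturase, was called in eWAT, with 0.69 ± 0.17 against 0.08 ± 0.05 in iWAT, and was the only 1 of 20 lipogenic genes to differ. Of these 20 genes, 16 had a higher fold change in iWAT than in eWAT, against 6720 of all 13197 tested genes. Fabp5, the second fatty-acid binding protein of adipocytes, had 0.58 ± 0.22 in iWAT and -0.84 ± 0.30 in eWAT. Single members that differed in other metabolic lists included Mcee of propionate breakdown, with 0.63 ± 0.18 and -0.21 ± 0.17, and the acyltransferase Agpat3, with 0.80 ± 0.31 and -0.34 ± 0.17. The calls of Fabp4 and Scd1 were lost when no SE could fall below the median SE of the 200 genes nearest in abundance.

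The receptor itself and most of the signaling genes were not called for the difference, which does not show that they responded alike. Gipr had -0.39 ± 0.45 in iWAT and -0.11 ± 0.45 in eWAT, with a 95% interval of the difference from -1.53 to 0.97. Of 24 genes of GIP and insulin signaling, 1 was called for the difference, against 3.71% of all tested genes. This was Insr, the insulin receptor, with 0.11 ± 0.20 in iWAT and -0.73 ± 0.16 in eWAT. Irs2, an adaptor of that receptor, had -0.32 ± 0.33 and -1.35 ± 0.24, called in eWAT but not for the difference. Other single calls were the small heat shock protein Hspb1, with 0.49 ± 0.17 and -0.41 ± 0.19, and the muscle actin Acta1, with -1.0 ± 0.33 and 0.23 ± 0.20, which was the only 1 of 3 tested skeletal muscle genes to differ. Of 39 lists with at least 5 tested genes, 13 had no call in the difference, among them interferon-stimulated genes, clock genes, collagens and cytosolic ribosomal proteins. No list had calls in both directions.

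The 52 shared genes were called in both depots with 1 sign, 19 positive and 33 negative, and none of them passed for the difference. The largest positive shared responses were those of H2-Q2, a gene of the MHC class I family, with 2.59 ± 0.69 in iWAT and 2.44 ± 0.69 in eWAT, and of the predicted gene Gm10499, with 1.97 ± 0.62 and 1.97 ± 0.56. Gbp2b, an interferon-inducible GTPase, had 1.67 ± 0.51 and 1.71 ± 0.51. H2-Q2 and Gbp2b belong to families of close copies, between which the counting could split reads. Acsm3, a medium-chain acyl-CoA synthetase, had 1.47 ± 0.30 and 1.25 ± 0.44. On the negative side, the segment Igkv4-72 given above had the largest values. Cxcr4, the receptor for Cxcl12, had -2.11 ± 0.54 and -1.53 ± 0.39, the GABA-B receptor subunit Gabbr1 -1.63 ± 0.52 and -1.53 ± 0.42, and Ciart, a repressor of the clock, -1.91 ± 0.47 and -1.28 ± 0.32. The 95% intervals of the differences of these 7 genes reached from -1.88 to 2.06, so shared genes can still differ in size.

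Shared genes also included members of the lists. The macrophage genes Adgre1, which encodes F4/80, with 0.63 in iWAT and 1.20 in eWAT, and Cd163, the hemoglobin scavenger receptor, with 0.75 and 0.80, were positive in both depots, unlike Timd4. The kinase gene Pdk4, with 1.28 and 0.79, was the shared member of the thermogenic list. Per3, a clock gene, had -0.77 and -0.47. Of the clock list, 2 of 19 tested genes were shared and none differed, where 52 of all 13197 tested genes were shared. In the insulin and GIP list, the adenylyl cyclase gene Adcy3 was positive in both depots, with 0.87 and 0.66, and Foxo1, a factor restrained by insulin, negative, with -0.66 and -0.88. These 6 genes were chosen after their values were seen.

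The counts depend on the errors taken from the likelihood ratios. The median likelihood ratio was 1.64 times that of a chi-square in iWAT and 2.6 times in eWAT. With the ratios divided by these factors, 115 genes differed, of which 108 had different signs in the 2 depots, and the opposite class shrank from 54 genes to 1, Rasal3, and the shared class from 52 to 0. By list, the calls went from 9 to 7 in B cells, 13 to 10 in T cells, 9 to 4 in NK and cytotoxic lymphocytes, 7 to 2 in MHC class II presentation, 7 to 2 in thermogenic genes, 12 to 11 in the mitochondrial genome and 7 to 1 in endothelium. With a t distribution with 8 degrees of freedom in place of the normal distribution, no gene passed. The smallest adjusted p was then 0.0595, and 1190 genes had an unadjusted p under 0.05, against 1781 by the normal distribution.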

How the data were processed

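RNA was measured in iWAT and eWAT, with 3 saline and 3 analog samples in each depot. The authors made polyadenylated libraries from 200 ng of RNA, used Trim Galore 0.6.4 for trimming and Rsubread for alignment to GRCm38, removed low counts with DESeq2 1.32.0 and compared treatments within a depot with edgeR 3.34.0. The counting step and annotation are not given in the sources used here. The deposited tables hold log2 fold changes and average log2 CPM from the authors' fits. They also hold the likelihood ratio, a score computed by the authors, with its p-value and an FDR value, which served only to choose genes in 1 alternative. The names of 12 further columns, 1 per sample, could not be matched to the labels, and their values were not used, so depth and its precision are unknown.

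Without these columns the interaction of depot and treatment could not be fitted on counts, and the fold changes were compared in its place. The SE of a fold change was its absolute value over the root of the likelihood ratio, and the difference of iWAT and eWAT over its SE was referred to the normal distribution, 2-sided. In each comparison, p-values were adjusted over the 13197 tested genes (Benjamini-Hochberg), and those under 0.05 were called. The steps were tested on simulated data, which took the derived SE as the true error and the depots as independent. The simulation therefore could not test these assumptions.

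Genes and 46 lists, with 950 symbols of which 773 were tested, were chosen with earlier results of these data known. Named genes are the 10 largest differences in each direction, the 8 shared and 12 opposite genes with the largest smaller fold change, up to 4 members of a list by the p of the difference, and a set of adipose genes. Some genes that this rule gives are not reported here. Coordinates and promoters are from RefSeq (GRCm38.p6), which holds 12916 of the tested genes. Alternatives changed the filter, the adjustment set, the threshold, the reference distribution, the SE, the centring, the genes tested and, chosen after seeing the data, the sign of the eWAT table. Python 3.11.15, numpy 2.4.6, pandas 2.3.3 and scipy 1.17.1 were used.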

Additional observations from a re-analysis of the deposited data

Results flagged for a closer look

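The 489 genes called between depots passed the test of the difference itself (Benjamini-Hochberg over 13197 genes), although some of the calls can be false. The differences below are log2 fold changes of iWAT minus those of eWAT for the named genes among them, and their adjusted p-values are by the normal distribution.

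Among the B cell and lymph node genes, the difference was -8.61 for Chst4, -6.84 for Cd79a, -5.48 for Ccl21a, -5.39 for Jchain, -5.00 for Cd79b, -4.60 for Ltb and -4.38 for Cxcl13, with adjusted p from 1.5e-14 to 1.1e-05. For the T cell and cytotoxic genes, the difference was -5.69 for Ccr7, -5.39 for Il7r, -4.97 for Rasal3, -4.72 for Ms4a4b, -4.45 for Lck, -4.12 for Cd3e, -4.01 for Sh2d2a, -3.93 for Zap70, -3.88 for Lat, -3.85 for Gimap7, -3.51 for Ccl5, -3.39 for Cd4 and -3.18 for Nkg7, with adjusted p from 4.7e-10 to 8.1e-05. In the remaining immune genes, the difference was -7.56 for Il22ra2, -5.10 for Ccl22, -4.95 for H2-DMb2, -4.59 for H2-Ob, -3.50 for Cd209b, -3.43 for Timd4, -2.15 for Siglech, -1.79 for Cd74, -1.65 for Irf8, -1.65 for Ctss, -1.52 for Cd209a and -0.99 for Gpnmb, with adjusted p from 6.6e-11 to 0.034. Among the cell cycle, early response and muscle genes, the difference was -2.08 for Mcm2, -1.22 for Mcm4, -1.16 for Mcm6, -1.46 for Myc, -1.15 for Junb and -1.24 for Acta1, with adjusted p from 0.00036 to 0.044. For the thermogenic and OXPHOS genes, the difference was 4.04 for Kng2, 2.40 for Cox7a1, 2.30 for S100b, 2.27 for Pank1, 2.09 for Cox8b, 2.03 for Cidea, 1.84 for Ppara, 1.72 for Ppargc1b, 0.87 for Ndufs6, 0.85 for Cox7a2 and 0.83 for Atp5l, with adjusted p from 1.4e-05 to 0.025. In the mitochondrial genome, the ribosomal RNAs and Gm20594, the difference was 4.05 for Gm20594, 2.73 for mt-Rnr1, 2.53 for ND3, 2.51 for mt-Rnr2, 2.32 for Rn18s, 2.20 for Rn45s, 1.91 for ND1, 1.83 for ND4 and 1.38 for CYTB, with adjusted p from 2.2e-21 to 0.00031. Among the vascular genes and Pdgfra, the difference was 1.37 for Cldn5, 1.00 for Cspg4, 0.91 for Tie1, 0.90 for Esam, 0.84 for Egfl7 and -1.09 for Pdgfra, with adjusted p from 6.1e-05 to 0.038. For the adipocyte, lipid and signaling genes, the difference was 1.48 for Cebpb, 1.42 for Fabp5, 1.15 for Agpat3, 0.90 for Hspb1, 0.84 for Mcee, 0.84 for Insr, 0.69 for Fabp4 and -0.61 for Scd1, with adjusted p from 1.1e-07 to 0.039. All of these calls are lost with the t distribution, and 34 of the 72 genes also with the likelihood ratios divided by their excess over a chi-square.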

How the results depend on the processing

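Compared with 489 genes that differed between depots (117 with iWAT above and 372 below), no filter on expression gave 757 (626 below), 1190 calls in iWAT in place of 578, and 476 iWAT-specific genes in place of 228. Adjustment over only the genes with an authors' FDR in both tables left 73 with iWAT above, 914 calls in eWAT in place of 1377, 27 shared genes in place of 52 and 88 eWAT-specific genes in place of 135. A threshold of 0.01 gave 275 (47 above, 228 below), 274 calls in iWAT, 694 in eWAT, 14 shared, 19 opposite, 141 iWAT-specific and 60 eWAT-specific genes. A difference above 1.5 was found for 323 genes, 38 of them above, and left 55 eWAT-specific genes. The t distribution left 0 genes for the difference in either direction, and so 0 iWAT-specific and 0 eWAT-specific genes. Likelihood ratios divided by their excess left 115 (22 above, 93 below), 99 calls in iWAT, 53 in eWAT, and 0 shared, 1 opposite, 59 iWAT-specific and 21 eWAT-specific genes. If the tables were oriented in opposite ways, an alternative chosen after seeing the data, 1311 genes would differ (365 above, 946 below), 681 would be eWAT-specific, and shared and opposite genes would change places.

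A stricter filter, a floor on the SE, centring, and leaving out gene segments or mitochondrial and untailed RNAs kept these counts within 1.5 times. No difference of a named gene reversed under the settings that keep the orientation of the tables, and 35 of 72 stayed called under each of these that tested them, the t distribution apart. Genes called with both the floor and the divided ratios numbered 114, of which 93 were below in iWAT. No paired analysis was possible because the columns of values per sample carry no replicate number of the labels. For the same reason, leaving out each replicate, a second tool for counts and a filter on counts were not run. Depth could not be judged.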

Other observations

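Outside the lists, further genes differed between depots, and those named here were chosen after their values were seen. Gata3, a factor of type 2 lymphocytes, and Il33, the cytokine that activates them, passed for the difference alone, with log2 fold changes of -1.24 ± 0.53 (SE) and -0.94 ± 0.34 in iWAT against 0.80 ± 0.33 and 0.60 ± 0.32 in eWAT.

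Among the 75 eWAT-specific negative genes, Enho, which encodes the secreted peptide adropin, had -2.06 ± 0.38 in eWAT and 0.01 ± 0.51 in iWAT. Kcnk3, a potassium channel expressed in brown and beige adipocytes, had -1.21 ± 0.17 and 0.59 ± 0.24, and Vegfb, a growth factor of vessels, -0.80 ± 0.17 and 0.24 ± 0.23. Of these 75 genes, 12 lie on the mitochondrial genome. Among the 22 iWAT-specific positive genes was Lncbate1, a long noncoding RNA of brown fat, with 1.18 ± 0.24 in iWAT and -0.36 ± 0.28 in eWAT.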
